A study of Mus musculus with 16 samples.

Results

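The 9 genes followed here encode neuronal EF-hand calcium-binding proteins and were measured in crushed and uninjured mouse retina: the buffers Calb1, Calb2 and Pvalb, the neuronal calcium sensors Ncald, Hpca, Hpcal1 and Vsnl1, and the N-terminal EF-hand proteins Necab1 and Necab2. They were taken by gene symbol, and all 9 were present among the 19495 genes that the 3 deposited tables share. The series measured RNA from whole retina of adult C57BL/6 mice of around 6 weeks, after ribosomal RNA depletion, by single-end sequencing, to compare 2 forms of the histone deacetylase HDAC5 with GFP after optic nerve injury. HDAC5AA (4 libraries), HDAC5DAD (4 libraries) and GFP (3 libraries; replicate 1 was not analysed here) are retinas of mice given an adeno-associated virus (AAV2) with that coding sequence into the vitreous, whose optic nerve was crushed 2 weeks later, and that were collected 4 days after the crush. The crush is given as 3 seconds at a distance of 1 mm. Uninjured (4 libraries) are retinas of the same strain and the same labelled age with no crush. The labels name no virus for them, so virus and crush cannot be told apart in any comparison with Uninjured. The series design names retinal ganglion cells as the cells made to overexpress the constructs. The labels do not define the AA and DAD forms, the promoter used or the share of cells reached. The labels do not tie libraries to separate animals, and the p-values below therefore speak of variation among libraries, part of which may be technical.

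EF-hand proteins bind calcium in a helix-loop-helix pocket. Buffers such as calbindin, calretinin and parvalbumin mostly take up calcium and so shape the size and duration of a calcium signal, whereas sensors of the hippocalcin and visinin-like family carry a lipid tail that calcium exposes, which sends them to membranes. In the mouse retina calbindin is known from horizontal cells and some amacrine and ganglion cells, calretinin from amacrine and ganglion cells, and parvalbumin from a subset of ganglion cells.

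Of the 9 members, 5 were matched to an entry in the table of RefSeq promoter windows used here (build GRCm38.p6), with 9 annotated starts among them: Pvalb, Hpca, Hpcal1, Vsnl1 and Necab2. The windows hold up to 250 bases before a start and are written 5′ to 3′ on the gene's own strand, less any annotated exon. Those shown were chosen because they belong to the member with the largest fall (Pvalb, both starts) and to 2 related sensors of which one fell and the other did not pass the test (Vsnl1 and Hpcal1). They lie at chr15:78206401-78206650 (minus strand, Pvalb start 1), chr15:78204238-78204487 (minus, Pvalb start 2), chr12:11436614-11436828 (minus, Vsnl1 start 1) and chr12:17690559-17690808 (plus, Hpcal1). Capitals mark matches to a MEF2 site or a GC box.
Pvalb start 1: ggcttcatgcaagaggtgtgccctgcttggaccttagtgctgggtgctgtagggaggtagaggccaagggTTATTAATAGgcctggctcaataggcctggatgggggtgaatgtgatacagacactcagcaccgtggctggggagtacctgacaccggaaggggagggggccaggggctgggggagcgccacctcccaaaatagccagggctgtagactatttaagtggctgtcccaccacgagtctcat
Pvalb start 2: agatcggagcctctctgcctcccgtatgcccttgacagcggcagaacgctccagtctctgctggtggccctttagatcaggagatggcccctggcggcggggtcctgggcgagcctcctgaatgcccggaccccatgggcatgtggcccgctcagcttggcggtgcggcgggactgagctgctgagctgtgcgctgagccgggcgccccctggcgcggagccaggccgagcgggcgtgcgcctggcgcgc
Vsnl1 start 1: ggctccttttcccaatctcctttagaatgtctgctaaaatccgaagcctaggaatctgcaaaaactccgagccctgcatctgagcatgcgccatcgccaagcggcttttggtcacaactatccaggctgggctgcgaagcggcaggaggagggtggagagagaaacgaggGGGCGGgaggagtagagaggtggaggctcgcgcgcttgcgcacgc
Hpcal1 start 1: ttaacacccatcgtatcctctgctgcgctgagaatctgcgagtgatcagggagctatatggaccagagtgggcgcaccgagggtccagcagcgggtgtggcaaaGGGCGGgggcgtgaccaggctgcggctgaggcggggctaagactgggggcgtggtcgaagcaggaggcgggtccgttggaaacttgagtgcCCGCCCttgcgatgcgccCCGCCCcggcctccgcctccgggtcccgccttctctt
Searched on both strands were a TATA box (TATAAA), a GC box (GGGCGG), a cyclic AMP response element (TGACGTCA) and the shorter TGACG it contains, an AP-1 site (TGANTCA), an E-box (CANNTG) and the MEF2 site, searched because class IIa histone deacetylases such as HDAC5 are known partners of MEF2 factors. The Pvalb window at start 1 held a MEF2 match, TTATTAATAG, 180 bases before the start, and 2.92% of 32851 mouse windows held one. A GC box was present 80 bases before Vsnl1 start 1 and at 146, 55 and 37 bases before the Hpcal1 start, with 32.7% of windows holding at least one. The Hpca windows, not printed, held GC boxes 10 bases before start 1 and 89 and 83 bases before start 2. The Necab2 window, not printed, held TGAGTCA 169 bases before the start, a match to the AP-1 pattern found in 6.75% of windows. E-boxes, present in 66.2% of windows, were left in lower case. The MEF2 match was the only one in the windows of the 9 starts. The shares are per window, and several windows and motifs were searched. These matches describe the letters of the windows.

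Summed over the 19495 shared genes, a library held 10939457 to 30970658 reads, which is not its full sequencing depth. The values below are reads per library put on one scale over the 15 libraries (normalized reads). Between 28 and 8441 reads supported each member in a library, the lowest being Pvalb. The share of the summed reads in ribosomal RNA features ranged from 0.0212% to 9.87%. It was under 1% in HDAC5AA replicates 1 and 2, HDAC5DAD replicates 2 and 3 and Uninjured replicates 2 and 3. In the other libraries, all 3 of GFP among them, it was at least 1%. Markers of retinal ganglion cells, the neurons whose axons form the optic nerve, were detected for 16 of 16 genes and their sum was 11511 to 12330 normalized reads in HDAC5AA, 11054 to 12934 in HDAC5DAD and 10641 to 12028 in GFP, against 21299 to 23810.1 in Uninjured. Of these 16 genes 14 fell in HDAC5AA, 15 in HDAC5DAD and 14 in GFP, with medians of -1.12, -1.16 and -1.09 on the log2 scale. The microglia and macrophage markers summed to 3587 to 6272 in HDAC5AA, 4240.5 to 6657 in HDAC5DAD and 2926 to 4834 in GFP, against 1075 to 1287 in Uninjured. None of the marker genes measured was at 0 in a whole group. The part of these shifts in the results below was not tested, and in whole retina fewer cells of a type and less RNA per cell cannot be told apart.

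Relative to Uninjured, 5 members fell in each crushed group, the same genes in all 3 comparisons: Pvalb, Vsnl1, Calb2, Hpca and Calb1. None of the 9 members rose. Among all 19495 genes, 3.25% were lower and 5.52% higher in HDAC5AA, 5.76% lower and 7.87% higher in HDAC5DAD, and 5.87% lower and 5.64% higher in GFP at the same threshold (limma, Benjamini-Hochberg adjusted p under 0.05). The median log2 fold change over the 9 members was -0.37 in HDAC5AA, -0.37 in HDAC5DAD and -0.45 in GFP, beside -0.01, -0.01 and 0.01 over all genes. Because the 3 comparisons share the same 4 Uninjured libraries, the repeat of these calls is not independent. Libraries of the crushed group lay wholly below Uninjured for 5 members in HDAC5AA, 5 in HDAC5DAD and 6 in GFP, where 5.56%, 7.14% and 11.2% of all genes did so. With libraries of at least 1% ribosomal RNA reads alone, 6, 5 and 6 members were called in HDAC5AA, HDAC5DAD and GFP. Over all genes limma called 917, 1749 and 1755 there. With those under 1%, 4 members were called in HDAC5AA and 4 in HDAC5DAD, beside 767 and 1234 over all genes.

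Among the buffers, Pvalb, which encodes parvalbumin, had the largest change. In replicate order it stood at 55.7, 59.2, 40.7 and 54.5 normalized reads in HDAC5AA, at 54.1, 69.4, 59.9 and 61.4 in HDAC5DAD, at 42.2, 49.9 and 43.1 in GFP, and at 246, 244, 262 and 245 in Uninjured. Every crushed library was far below every uninjured one, and HDAC5AA replicate 3 was the lowest of all 15. The group means were 21.1% of Uninjured in HDAC5AA, 24.6% in HDAC5DAD and 18.1% in GFP. Pvalb fell, with log2 fold changes of -2.24 (SE 0.13), -2.01 (SE 0.13) and -2.44 (SE 0.14) in HDAC5AA, HDAC5DAD and GFP (limma adjusted p = 4.36e-12, 2.86e-11 and 3.88e-12). The authors' own log2 fold changes for Pvalb are smaller in size, at -1.77, -1.73 and -1.98. Set among the 16 ganglion cell markers, the sodium channel subunit Scn4b (-3.96, -4.01 and -3.65) had lower log2 fold changes. So did the transcription factor Pou4f2 (-3.40, -2.92 and -2.70), with SE of 0.56, 0.56 and 0.60. Pou4f2 had few reads (1.95 to 32.9 normalized reads in HDAC5AA), so its place relative to Pvalb is uncertain. The next was the transcription factor Isl2 (-1.82, -1.91 and -1.94).

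Calb2, which encodes calretinin, had the highest level per kilobase of the 9 in every group. It had 3489, 3333, 3239 and 2961 normalized reads in HDAC5AA, 2730.4, 3324, 3087 and 2943 in HDAC5DAD, 2989, 2411 and 2910.35 in GFP, and 5363, 5059, 5172 and 5043 in Uninjured. The uninjured libraries lay close together and above every crushed library. Calb2 fell, with log2 fold changes of -0.67 (SE 0.07), -0.78 (SE 0.07) and -0.90 (SE 0.07) in HDAC5AA, HDAC5DAD and GFP (limma adjusted p = 7.38e-08, 4.15e-09 and 1.93e-09). Its group means were 63.1%, 58.6% and 53.7% of Uninjured.

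Calb1, which encodes calbindin, fell least of the 5. Its values were 1101, 1017, 1038 and 963 normalized reads in HDAC5AA, 898, 1148, 1079 and 982 in HDAC5DAD, 969, 841 and 951 in GFP, and 1275, 1277, 1219.9 and 1267 in Uninjured. The groups did not overlap, although HDAC5DAD replicate 2 came within a short distance of the lowest uninjured library. The log2 fold changes were -0.29 (SE 0.07) in HDAC5AA, -0.30 (SE 0.07) in HDAC5DAD and -0.45 (SE 0.07) in GFP (limma adjusted p = 0.00407, 0.00221 and 6.57e-05). Among libraries with under 1% ribosomal RNA reads, 2 a group, Calb1 no longer passed (-0.24, limma adjusted p = 0.176 in HDAC5AA and -0.17, adjusted p = 0.285 in HDAC5DAD). In the libraries with at least 1% it did (-0.35, adjusted p = 0.0147 in HDAC5AA, -0.44, adjusted p = 0.00112 in HDAC5DAD and -0.47, adjusted p = 0.000203 in GFP). Markers of horizontal cells, a known site of calbindin, passed in 0 of 7 cases in each comparison, with list sums of 4341 to 4720.3 in HDAC5AA, 4544 to 4743 in HDAC5DAD and 4047 to 4484 in GFP, against 4561 to 4778 in Uninjured. Amacrine cells are another site of calbindin, and of their 15 markers 0 fell in HDAC5AA, 3 in HDAC5DAD and 2 in GFP. The amacrine list sums were 20834 to 24177 in HDAC5AA, 19101 to 21978 in HDAC5DAD and 19730 to 21377 in GFP, against 21081 to 24357 in Uninjured, and the ganglion cell marker sums given above lay below Uninjured in every crushed library. The part of these cell types in the Calb1 values was not tested.

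**Figure D1:**
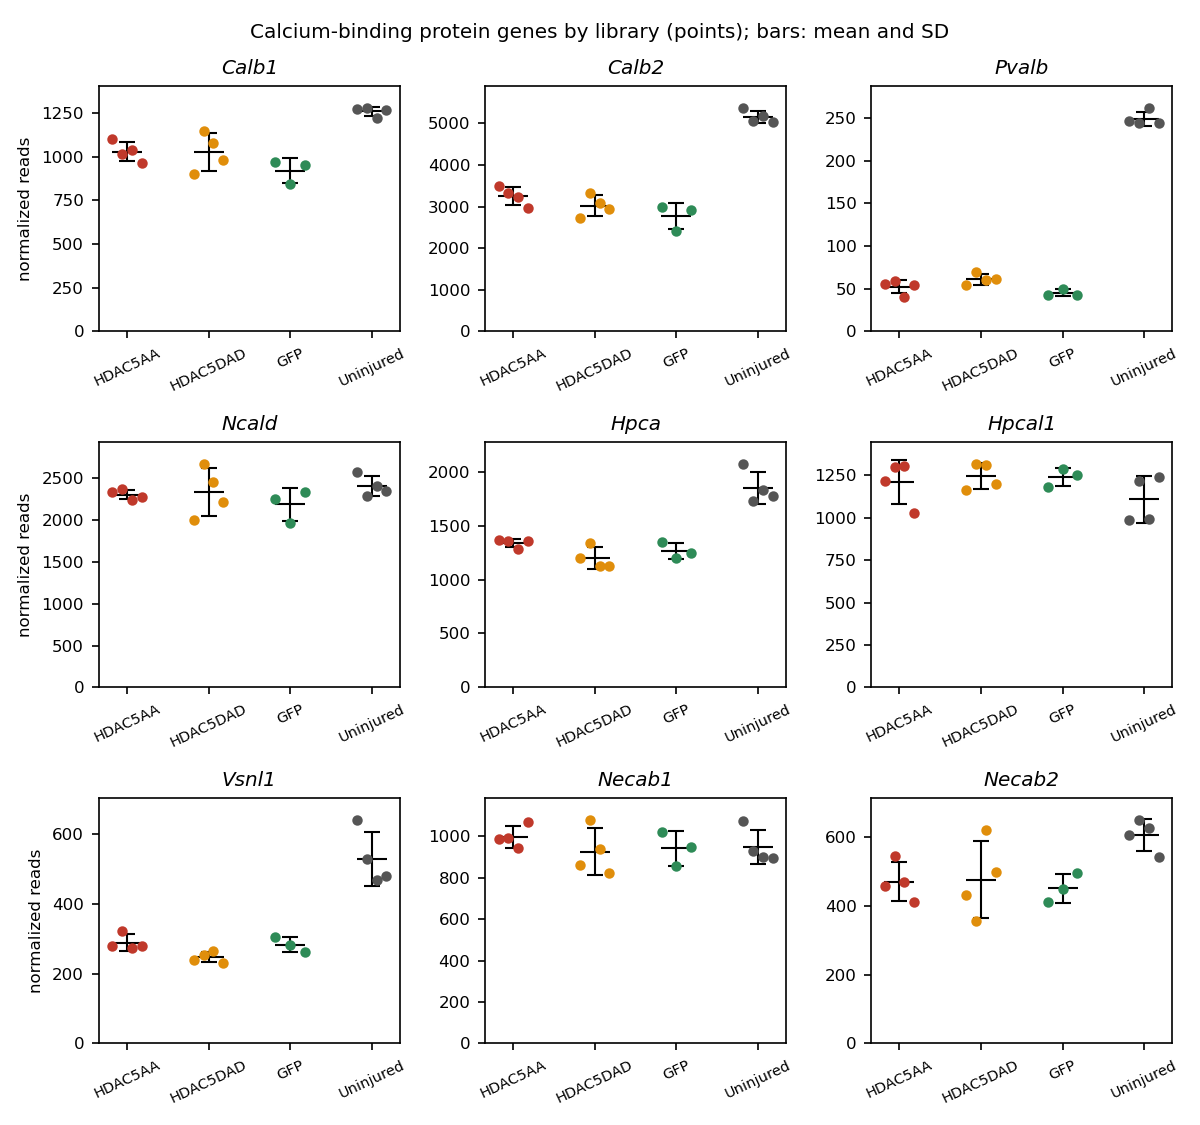
Normalized reads (vertical axis, linear from 0) of the 9 genes in each library (points) of HDAC5AA, HDAC5DAD, GFP and Uninjured, with group mean and SD (bars). Pvalb lies between 40.7 and 69.4 in the crushed libraries and between 244 and 262 in Uninjured, while the groups overlap for Ncald, Hpcal1 and Necab1.

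Of the 4 calcium sensors, Vsnl1 and Hpca fell, and Ncald and Hpcal1 did not pass the test. Vsnl1, which encodes a visinin-like protein, had 281, 324, 273 and 280.2 normalized reads in HDAC5AA, 241, 254, 264 and 230.3 in HDAC5DAD, 305, 283 and 262 in GFP, and 640.3, 528, 469.9 and 479 in Uninjured. Uninjured replicate 1 was high in its group, and even the lowest uninjured library was above every crushed one. Vsnl1 had log2 fold changes of -0.86 (SE 0.09) in HDAC5AA, -1.09 (SE 0.09) in HDAC5DAD and -0.89 (SE 0.10) in GFP (limma adjusted p = 1.58e-07, 2.10e-09 and 3.72e-07).

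Hpca encodes hippocalcin, a sensor best known from hippocampal neurons. It was measured at 1364, 1357, 1284 and 1362 normalized reads in HDAC5AA, 1201, 1339, 1126 and 1125 in HDAC5DAD, 1349, 1203 and 1249 in GFP, and 2071, 1729.8, 1829.55 and 1775 in Uninjured. Again no crushed library reached the uninjured range. Hpca fell in all 3 comparisons, with log2 fold changes of -0.46 (SE 0.06) in HDAC5AA, -0.63 (SE 0.06) in HDAC5DAD and -0.55 (SE 0.07) in GFP (limma adjusted p = 7.92e-06, 4.63e-08 and 2.26e-06).

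Hpcal1, the hippocalcin-like gene, stood at 1218, 1300.1, 1305 and 1027 normalized reads in HDAC5AA, 1163, 1315, 1313 and 1197 in HDAC5DAD, 1179, 1288 and 1253 in GFP, and 986, 1219, 994 and 1241 in Uninjured. Replicates 1 and 3 of Uninjured were low and replicates 2 and 4 were within the crushed range, so the groups overlapped. Its log2 fold changes were 0.13 (95% interval -0.04 to 0.30), 0.17 (0.0042 to 0.34) and 0.17 (-0.02 to 0.35) in HDAC5AA, HDAC5DAD and GFP (limma adjusted p = 0.462, 0.198 and 0.276). Ncald, which encodes neurocalcin delta, ranged over 2247 to 2369 normalized reads in HDAC5AA, 2004 to 2669.8 in HDAC5DAD and 1973 to 2341 in GFP, against 2287 to 2573 in Uninjured. Here too the groups overlapped, and the log2 fold changes were -0.06 (95% interval -0.20 to 0.08), -0.05 (-0.19 to 0.10) and -0.14 (-0.29 to 0.02) in HDAC5AA, HDAC5DAD and GFP (limma adjusted p = 0.755, 0.754 and 0.290).

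The NECAB genes encode proteins with EF hands near the N-terminus and a monooxygenase-like domain near the other end. Necab1 ranged over 941 to 1068 normalized reads in HDAC5AA, 823 to 1077 in HDAC5DAD and 855 to 1019 in GFP, against 893 to 1072 in Uninjured. The ranges coincide, with log2 fold changes of 0.07 (95% interval -0.09 to 0.23), -0.04 (-0.20 to 0.12) and -0.01 (-0.18 to 0.16) in HDAC5AA, HDAC5DAD and GFP (limma adjusted p = 0.729, 0.823 and 0.957). Necab2 had 458, 546, 469 and 411 normalized reads in HDAC5AA, 431, 356, 619 and 498 in HDAC5DAD, 411, 448 and 495 in GFP, and 606, 649, 627 and 544 in Uninjured. GFP libraries were all below Uninjured, whereas HDAC5AA replicate 2 and HDAC5DAD replicate 3 reached into the uninjured range, and HDAC5DAD spread the most. Its log2 fold changes were -0.37 (95% interval -0.65 to -0.09), -0.37 (-0.66 to -0.09) and -0.43 (-0.73 to -0.12), with limma adjusted p = 0.117, 0.0807 and 0.0707 in HDAC5AA, HDAC5DAD and GFP.

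The Necab2 call depends on the test. DESeq2 on the recovered reads called it lower in all 3 comparisons (adjusted p = 0.0443, 0.0360 and 0.0146 in HDAC5AA, HDAC5DAD and GFP), and edgeR's quasi-likelihood test only in GFP (adjusted p = 0.0758, 0.0529 and 0.0368). Fitted within a pair's own table, limma called it in HDAC5AA (adjusted p = 0.00607) and GFP (adjusted p = 0.000969), and with libraries of at least 1% ribosomal RNA reads it did so in the same 2 groups (adjusted p = 0.0467 and 0.0307). Without HDAC5DAD replicate 3 the limma value in HDAC5DAD was -0.51 (adjusted p = 0.00156), and without replicate 2 it was -0.24 (adjusted p = 0.178). In the authors' deposited table the adjusted p of Necab2 is 0.00264 in HDAC5AA, 0.0508 in HDAC5DAD and 9.60e-05 in GFP.

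**Figure D2:**
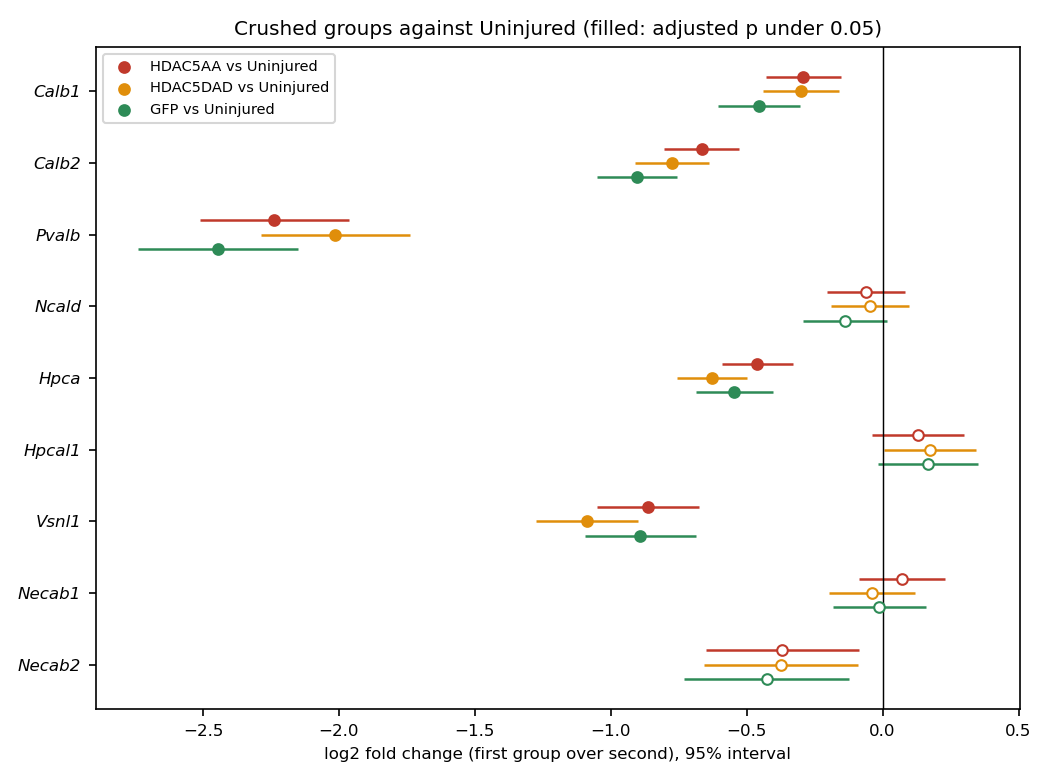
Log2 fold changes of the 9 genes (horizontal axis, crushed group over Uninjured) with 95% intervals from limma, filled where the adjusted p is under 0.05. Pvalb lies farthest from 0 in HDAC5AA, HDAC5DAD and GFP, and the points of Ncald, Hpcal1, Necab1 and Necab2 are open.

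Per kilobase of exon, the levels of the genes can be set beside each other. The length used is that of all annotated exons of a gene merged. Which transcripts the retina expressed was not measured, and the order of the genes depends on that length. Calb2 was highest in each of the 4 groups, at 1868 ± 127 normalized reads per kb in HDAC5AA, 1733 ± 143 in HDAC5DAD and 1589 ± 179.8 in GFP, against 2959.95 ± 84.6 in Uninjured (SD, n = 4, 4, 3 and 4). Hpcal1 and Hpca came next in every group. In Uninjured those neighbours overlapped, at 655 ± 81.9 and 634 ± 51.9 normalized reads per kb, and in each crushed group Hpca lay below Hpcal1 with no overlap. The middle of the order, in Uninjured Necab2, Ncald, Vsnl1 and Calb1, spanned 289 to 259.9 normalized reads per kb with each neighbour overlapping the next. Pvalb, at 239 ± 8.02 in Uninjured, was eighth there and above Necab1 (181 ± 15.9). It was last in each crushed group, at 50.5 ± 7.81, 58.8 ± 6.06 and 43.3 ± 4.04 in HDAC5AA, HDAC5DAD and GFP. Vsnl1 was next to last in the crushed groups, at 148 ± 11.9, 126 ± 7.56 and 145 ± 11.0 normalized reads per kb, and overlapped neither neighbour. The highest mean was 37.0 times the lowest in HDAC5AA, 29.5 times in HDAC5DAD and 36.7 times in GFP, against 16.3 times in Uninjured.

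**Figure D3:**
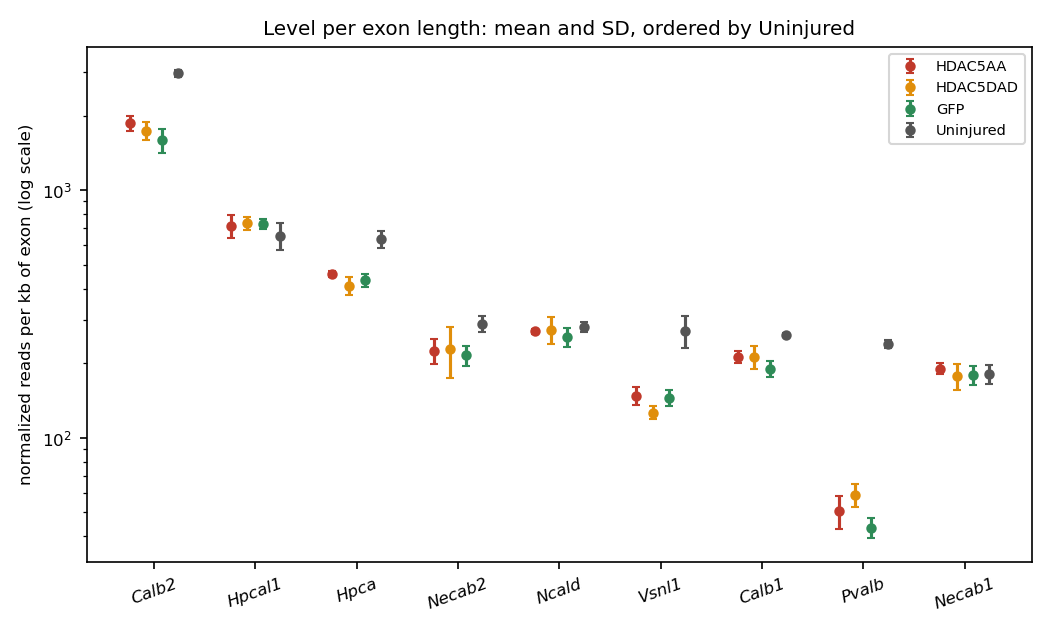
Normalized reads per kilobase of exon (vertical axis, log scale), mean and SD by group, with genes ordered by their mean in Uninjured. Calb2 is highest in all 4 groups, and the 2 lowest genes in HDAC5AA, HDAC5DAD and GFP are Vsnl1 and Pvalb, against Pvalb and Necab1 in Uninjured.

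Ratios between related members within a library describe how their levels stood to each other. These 4 ratios were chosen after their values were seen and carry no test. Calb2 over Calb1 was 8.79 ± 0.243 in HDAC5AA, 8.20 ± 0.235 in HDAC5DAD and 8.35 ± 0.331 in GFP, against 11.4 ± 0.407 in Uninjured, in normalized reads per kb (SD, n = 4, 4, 3 and 4). Hpca over Hpcal1 was 0.649 ± 0.0865, 0.558 ± 0.0469 and 0.595 ± 0.0625 in HDAC5AA, HDAC5DAD and GFP, against 0.985 ± 0.193 in Uninjured. For Vsnl1 over Ncald the ratios were 0.550 ± 0.0334, 0.467 ± 0.0456 and 0.571 ± 0.0723, against 0.963 ± 0.109 in Uninjured. In these 3 ratios no crushed library reached the uninjured range. Necab2 over Necab1 was 1.19 ± 0.174, 1.31 ± 0.362 and 1.21 ± 0.172, against 1.60 ± 0.164 in Uninjured, and HDAC5DAD overlapped Uninjured there.

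The HDAC5 forms were then set against GFP and against each other, comparisons in which both sides had the crush and a virus injection. None of the 9 members passed the test in limma, edgeR or DESeq2 for HDAC5AA over GFP, HDAC5DAD over GFP or HDAC5AA over HDAC5DAD. Over all genes limma called 0%, 0% and 0.0103%, edgeR called 0, 1 and 0 genes, and DESeq2 called 0, 59 and 9. At an unadjusted p under 0.05 limma named 2 members in each comparison: Calb1 and Calb2 for HDAC5AA over GFP, Calb1 and Pvalb for HDAC5DAD over GFP, and Hpca and Vsnl1 for HDAC5AA over HDAC5DAD. Over all genes that limit was met by 6.59%, 11.5% and 6.78%.

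Calb2 was higher in HDAC5AA than in GFP by 0.24 (95% interval 0.09 to 0.38) on the log2 scale, with overlapping libraries (limma adjusted p = 0.737). For Calb1 the value was 0.16 (0.01 to 0.31) in HDAC5AA over GFP and 0.15 (0.0049 to 0.30) in HDAC5DAD over GFP (limma adjusted p = 0.754 and 0.427). In HDAC5AA over GFP the libraries overlapped for all 9 members, where they did not for 7.9% of all genes. Pvalb was at 54.1 to 69.4 normalized reads in HDAC5DAD and at 42.2 to 49.9 in GFP, so the libraries did not overlap, as for 10.9% of all genes in that comparison. Its log2 fold change was 0.43 (95% interval 0.14 to 0.73; limma adjusted p = 0.303), and in HDAC5AA over GFP it was 0.21 (-0.09 to 0.50; adjusted p = 0.804). Vsnl1 was at 273 to 324 in HDAC5AA and at 230.3 to 264 in HDAC5DAD, again with no overlap, as for 3.21% of genes in that comparison. There the log2 fold change was 0.22 (0.04 to 0.41; limma adjusted p = 0.710 over all genes). Hpca differed by 0.17 (0.04 to 0.30; limma adjusted p = 0.700) with overlapping libraries. Every other interval among these 3 comparisons spanned 0, with bounds as low as -0.50 (Pvalb, HDAC5AA over HDAC5DAD) and as high as 0.50 (Pvalb, HDAC5AA over GFP). Mean marker sums varied between crushed groups as well. Those of microglia and macrophages averaged 4466 in HDAC5AA and 5376 in HDAC5DAD, against 3838 in GFP. Their library ranges overlapped, at 3587 to 6272, 4240.5 to 6657 and 2926 to 4834. Those of pigment epithelium, lens and anterior eye averaged 715 in HDAC5AA and 1048 in HDAC5DAD, against 1827 in GFP. Their ranges were 459 to 1023, 665 to 1591 and 1201 to 2689. HDAC5DAD overlapped both other groups there, and HDAC5AA lay below GFP. The part of either in these values was not tested.

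**Figure D4:**
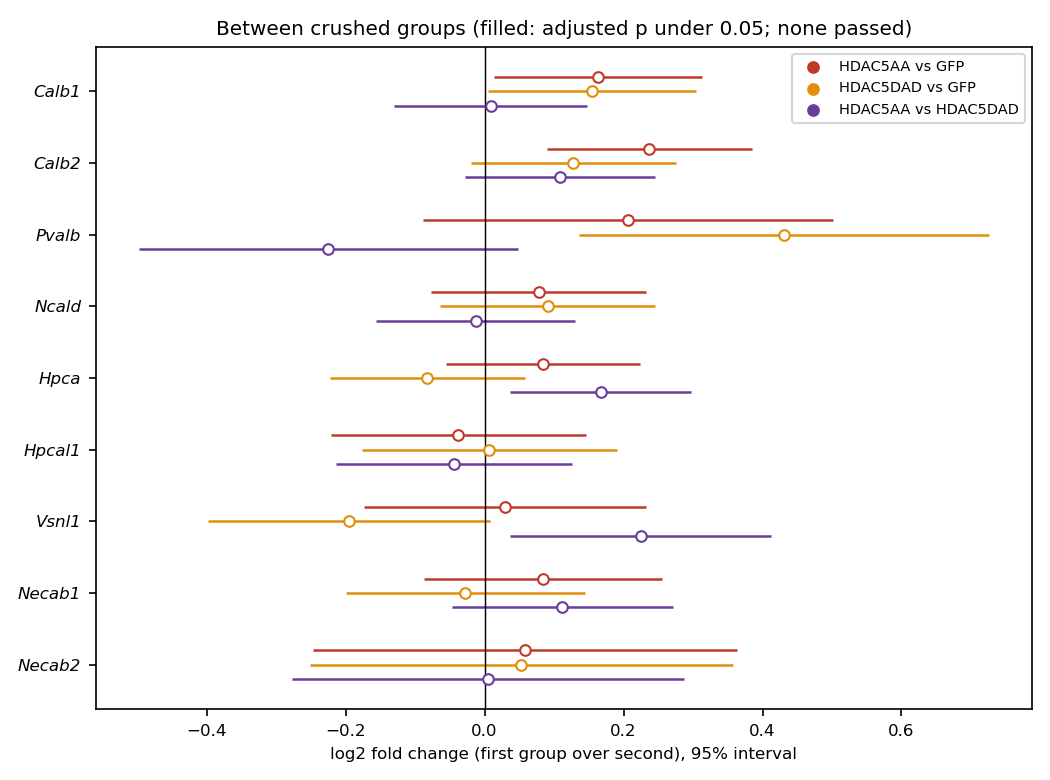
Log2 fold changes of the 9 genes (horizontal axis) for HDAC5AA over GFP, HDAC5DAD over GFP and HDAC5AA over HDAC5DAD, with 95% intervals from limma. All points are open because 0 members passed, and the highest value is Pvalb in HDAC5DAD over GFP at 0.43.

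Other genes of calcium handling were read from 4 lists. Over all genes, 3.25% fell in HDAC5AA, 5.76% in HDAC5DAD and 5.87% in GFP, and 5.52%, 7.87% and 5.64% rose. Falls were thus fewest in HDAC5AA over all genes too. Among EF-hand relatives of the members, 5 of 21 measured genes fell in HDAC5AA, 8 in HDAC5DAD and 12 in GFP, and 0 rose, with list medians of -0.16, -0.15 and -0.30 on the log2 scale. Caln1, a calneuron of the calmodulin-like family, averaged 550.1 ± 44.7, 476 ± 5.64 and 481 ± 16.1 normalized reads in HDAC5AA, HDAC5DAD and GFP, against 916 ± 94.7 in Uninjured, with log2 fold changes of -0.73, -0.94 and -0.92 (limma adjusted p = 3.25e-08, 2.99e-10 and 2.85e-09). Kcnip4, a calcium-sensing subunit of potassium channels, had log2 fold changes of -0.81, -0.94 and -0.83 (limma adjusted p = 9.47e-06, 7.89e-07 and 1.76e-05). Its relative Kcnip2 fell in HDAC5DAD and GFP (-0.58 and -0.59, limma adjusted p = 9.57e-05 and 0.000290) and had -0.29 in HDAC5AA (adjusted p = 0.0747). Necab3, the third NECAB gene, fell in HDAC5DAD and GFP (-0.58 and -0.55, limma adjusted p = 0.00788 and 0.0238) and had -0.46 in HDAC5AA (adjusted p = 0.0554). Whether HDAC5AA differs from GFP for these genes is a separate comparison. There limma called 0 of 19495 genes, so the 0 of 21 called here says nothing particular of this list. The log2 fold changes there were 0.19 (95% interval 0.03 to 0.35) for Caln1 and 0.30 (0.08 to 0.52) for Kcnip2. For Kcnip4 and Necab3 they were 0.03 (-0.21 to 0.26) and 0.09 (-0.24 to 0.42).

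Of 17 calcium pumps and exchangers, 2 fell in HDAC5AA, 9 in HDAC5DAD and 7 in GFP, with medians of -0.13, -0.19 and -0.18. Atp2b3 and Atp2b2, plasma membrane calcium pumps, fell in each group, with log2 fold changes of -0.52, -0.65 and -0.65 for Atp2b3 and of -0.35, -0.52 and -0.40 for Atp2b2 in HDAC5AA, HDAC5DAD and GFP. The sodium-calcium exchangers Slc8a2 and Slc8a3 fell in HDAC5DAD (-0.46 and -0.26) and in GFP (-0.43 and -0.34), with -0.33 and -0.18 in HDAC5AA, where neither passed. The 1 gene of the list that rose, named after its value was seen, was Slc8b1, a mitochondrial exchanger, in HDAC5AA (0.39, limma adjusted p = 0.0248).

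Of 31 calcium channel genes, 7 fell in HDAC5AA, 14 in HDAC5DAD and 8 in GFP, and 0 rose, with medians of -0.12, -0.27 and -0.13. Cacng5, of the family of auxiliary subunits of AMPA receptors and calcium channels, averaged 464 ± 29.0, 433 ± 22.4 and 438 ± 37.4 normalized reads in HDAC5AA, HDAC5DAD and GFP, against 665 ± 26.4 in Uninjured. The auxiliary subunit genes Cacnb3 and Cacnb4 fell as well, with log2 fold changes of -0.48, -0.56 and -0.55 for Cacnb3 and of -0.26, -0.42 and -0.35 for Cacnb4. Itpr1, which encodes a calcium release channel of the endoplasmic reticulum, had log2 fold changes of -0.32, -0.30 and -0.39 and passed in each.

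Of 20 calcium-dependent kinase and calcineurin genes measured, 2 fell in HDAC5AA, 6 in HDAC5DAD and 6 in GFP. In each group 1 rose, beside 5.52%, 7.87% and 5.64% of all genes, so this rise does not set the list apart. The gene that rose was Camk1, a calmodulin-dependent kinase, at 909 ± 85.2, 947 ± 63.6 and 823 ± 41.9 normalized reads in HDAC5AA, HDAC5DAD and GFP, against 493 ± 31.2 in Uninjured. Its log2 fold changes were 0.88, 0.94 and 0.74 (limma adjusted p = 8.52e-10, 2.09e-10 and 8.48e-08). Camk2b, a subunit of the major neuronal calmodulin-dependent kinase, fell, with log2 fold changes of -0.22, -0.27 and -0.34. Camk2a fell in HDAC5DAD and GFP (-0.70 and -0.50) and had -0.36 in HDAC5AA (limma adjusted p = 0.157), and Rcan2, a calcineurin inhibitor, fell in HDAC5AA and GFP (-0.25 and -0.33) and had -0.22 in HDAC5DAD (adjusted p = 0.0566).

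**Figure D5:**
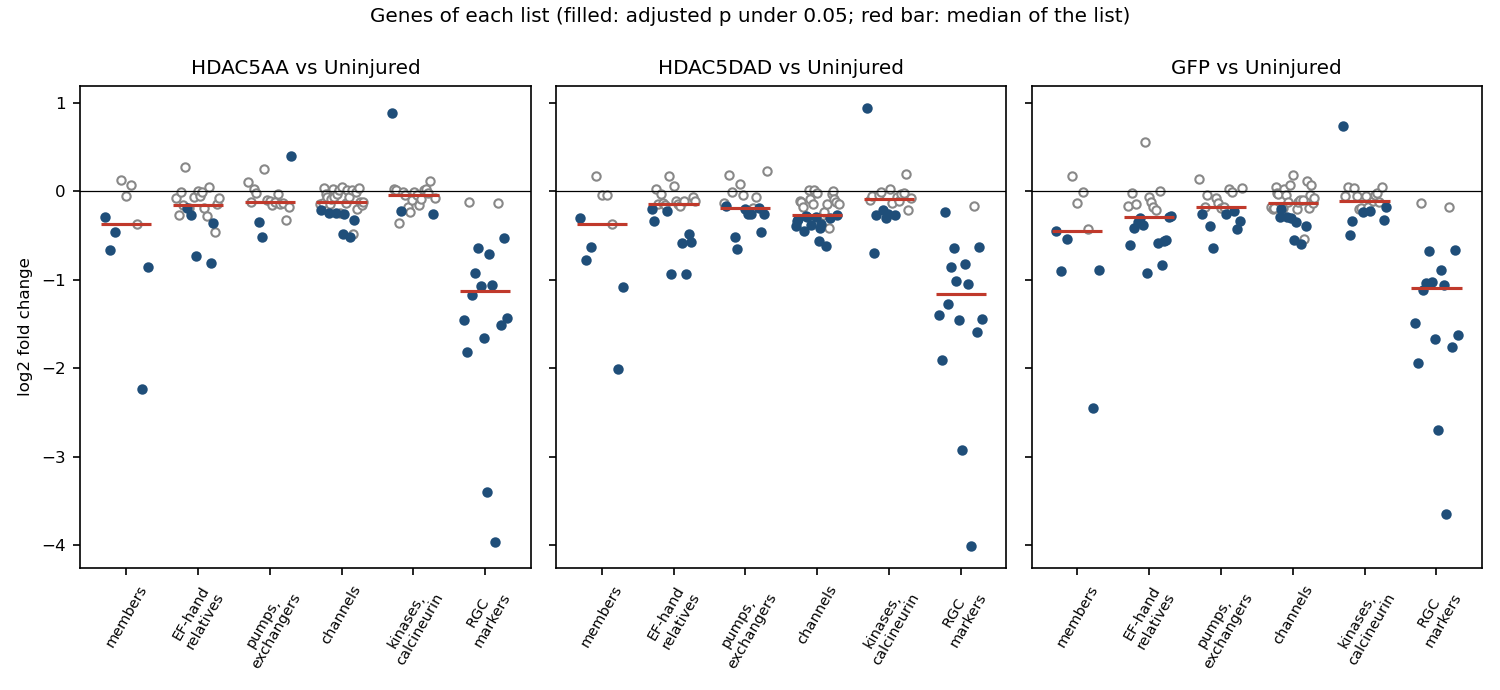
Log2 fold changes over Uninjured (vertical axis) of each gene in the 9 members, the 4 calcium lists and the retinal ganglion cell (RGC) markers, filled where the limma adjusted p is under 0.05, with the list median as a red bar. The marker medians are -1.12, -1.16 and -1.09 in HDAC5AA, HDAC5DAD and GFP, and the single gene near 0.9 among the kinases is Camk1.

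For each of the 5 members that fell, the genes with the nearest profiles were sought among 12228 genes with a mean of at least 50 normalized reads. Likeness is the root mean square difference of log2 profiles over the 15 libraries, each centred on its own mean, and is given with no test since all profiles share libraries and scale. Pvalb was nearest to the serotonin receptor gene Htr1b (0.219), Tusc5 (0.220) and Rbpms2 (0.249), beside its own spread of 0.998. Calb2 was nearest to Sult4a1 (0.0918), Nat8l (0.0938) and the neuronal tubulin gene Tubb3 (0.0958), with an own spread of 0.363. The nearest to Calb1 were the nicotinic receptor gene Chrnb2 (0.0555), the calmodulin gene Calm3 (0.0566) and the microtubule protein gene Mapt (0.0596), with an own spread of 0.185. Hpca was nearest to the adhesion molecule gene Ncam2 (0.0613), the protocadherin gene Pcdh10 (0.0721) and Bend6 (0.0731), and Vsnl1 to Caln1 (0.106), Cdk14 (0.110) and the nicotinic receptor gene Chrnb3 (0.124). None of these 15 was among the 16 ganglion cell markers. That list is short beside the 12228 genes searched, so this count does not bear on which cells express the 15 genes.

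The position of the members bears on how their reads were counted. In GRCm38, the build named mm10 in the processing notes, all 9 are annotated as protein coding: Calb1 at chr4:15881264-15908064 (plus, ENSMUSG00000028222), Calb2 at chr8:110137502-110168210 (minus, ENSMUSG00000003657), Pvalb at chr15:78191114-78206400 (minus, ENSMUSG00000005716) and Ncald at chr15:37366175-37792570 (minus, ENSMUSG00000051359). Hpca lies at chr4:129111570-129122036 (minus, ENSMUSG00000028785), Hpcal1 at chr12:17690856-17791933 (plus, ENSMUSG00000071379), Vsnl1 at chr12:11325242-11436613 (minus, ENSMUSG00000054459), Necab1 at chr4:14952245-15149794 (minus, ENSMUSG00000040536) and Necab2 at chr8:119446719-119472640 (plus, ENSMUSG00000031837). No stretch of 50 bases was shared between 2 members. Shares of 4.89% of the 50-base stretches of Ncald, 0.721% of Hpca, 6.50% of Hpcal1 and 6.96% of Necab1 also occur in other genes, and for the other 5 members the share was 0. Exons of Ncald, Hpca and Necab1 overlap those of other genes (Gm28221 and Gm49397, Tmem54, and Gm11837) by up to 7.83%. Whether counting used strand is not given in the sources used here, so reads from those short overlaps cannot be told apart.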

How the data were processed

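Whole-retina RNA was depleted of ribosomal RNA and sequenced as single reads, per the labels' protocols. Per the submitters' processing notes STAR, HTSeq, DESeq2 and the build mm10 were used; versions, settings and strand mode are not given in the sources used here. The deposited values are a signal, read counts divided by 1 size factor per library and table, by the authors. The authors' deposited tables also hold their own log2 fold changes and their p-values, raw and adjusted. Dividing by the step of each library gave whole reads for 100% of values (within 0.01). The 4 Uninjured libraries recur in the 3 tables, with 77980 of 77980 recovered reads equal between tables. Genes with few reads had been left out before deposit, and 19495 genes were in all 3 tables.

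The recovered counts of 15 of the 16 labelled samples (GFP replicate 1 was not analysed here) were scaled jointly by median-of-ratios size factors. One limma fit (version 3.58.1, R 4.3.3, robust trend) on log2(normalized reads + 1), over 19495 genes with a mean of at least 1, gave 6 two-sided contrasts, adjusted by Benjamini-Hochberg over all genes at 0.05. The fit had been planned for normalized values; edgeR (4.0.16) and DESeq2 (1.42.0) on the recovered reads were alternatives, as were TMM scaling, each pair's own table, other pseudocounts (0.1 and 5), a minimum mean of 10 or none, the replicate number as a block, leaving out each library, and splitting libraries at 1% ribosomal RNA reads. The programs were tested on simulated data. Fold changes carry the pseudocount and so understate changes of low genes.

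Members, lists and alternatives were chosen with earlier results of these data known. The text names all 9 members; from each calcium list up to 4 genes that passed in at least 2 comparisons with Uninjured, by mean size of change; and for each fallen member the 3 nearest profiles, leaving out genes with Gm or Rik names. Ocm and Ppp3r2 of the lists, and the markers Pax2, Olig1, Olig2, Mlana and Krt12, are not among the joined genes. Marker lists gave these calls against Uninjured, in the order HDAC5AA, HDAC5DAD and GFP. Over all genes 3.25%, 5.76% and 5.87% fell and 5.52%, 7.87% and 5.64% rose. Bipolar markers fell in 3, 5 and 5 of 12, and rod markers in 0, 2 and 3 of 12. Of 10 cone markers 1 rose in each and 1 fell in GFP. Of 10 Mueller glia markers 4, 4 and 3 rose and 1 fell in each. Of 6 astrocyte and nerve glia markers 1 fell in HDAC5AA. Of 12 microglia and macrophage markers 11 rose in each. Of 8 vessel markers 1, 1 and 0 rose, and of 10 pigment epithelium, lens and anterior eye markers 0 passed. Exon lengths and gene positions are from GENCODE on GRCm38. Precision is limited by 3 or 4 libraries a group.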

Additional observations from a re-analysis of the deposited data

Results flagged for a closer look

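Of 27 member and group combinations with 4 libraries, 3 held a library far from the rest of its group, by Dixon's test of the gap over the range at 95%; chance gives about 1 in 20. Pvalb in Uninjured replicate 3 was 262 normalized reads, with a gap of 0.857 of the range. Hpca in HDAC5AA replicate 3 was 1284, with a gap of 0.906 of the range. Vsnl1 in HDAC5AA replicate 2 was 324, with a gap of 0.845 of the range.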

How the results depend on the processing

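Of 945 alternative values, 894 kept their direction and their side of the threshold, 40 changed sign, 9 passed the threshold anew (all Necab2 against Uninjured) and 2 lost it (Calb1, given above, with 2 libraries a group). For the 5 members that fell, 273 of 275 alternative values against Uninjured passed. Those 5 were named because they passed the main fit, and all alternatives reuse its libraries, so these values are not independent. The number of members called stayed at 4 to 6 against Uninjured and at 0 between crushed groups. Of the 40 values that changed sign, 0 passed the threshold in limma, edgeR or DESeq2 at a Benjamini-Hochberg adjusted 0.05, and the cause was not tested. With libraries under 1% ribosomal RNA reads they were Ncald in HDAC5AA (0.00089) and HDAC5DAD (0.13) and Necab1 in HDAC5DAD (0.14) over Uninjured, and Calb1 (-0.073) and Necab1 (-0.027) in HDAC5AA over HDAC5DAD. With those of at least 1% they were Vsnl1 (-0.033) and Necab2 (-0.036) in HDAC5AA over GFP, Ncald (-0.049) and Hpcal1 (-0.071) in HDAC5DAD over GFP, and Ncald (0.099) and Necab2 (-0.080) in HDAC5AA over HDAC5DAD. Necab2 in HDAC5AA over HDAC5DAD was -0.0025 in edgeR and -0.0098 in DESeq2. Leaving out 1 library at a time gave log2 values over Uninjured of -0.11 to 0.024 for Ncald and -0.11 to 0.020 for Necab1 in HDAC5DAD, and -0.071 to 0.056 for Necab1 in GFP. In HDAC5AA over GFP the range was -0.075 to 0.040 for Hpcal1, -0.026 to 0.083 for Vsnl1 and -0.015 to 0.13 for Necab2. In HDAC5DAD over GFP it was -0.029 to 0.039 for Hpcal1, -0.10 to 0.031 for Necab1 and -0.083 to 0.18 for Necab2. In HDAC5AA over HDAC5DAD it was -0.054 to 0.064 for Calb1, -0.084 to 0.053 for Ncald, -0.082 to 0.033 for Hpcal1 and -0.12 to 0.14 for Necab2. Replicate numbers did not pair libraries (correlations of -0.174 to 0.238 between same-numbered libraries). With the number as a block, 5, 5 and 5 members were called against Uninjured and 0 in each comparison of crushed groups. Over all genes that fit called 1663, 2557 and 1987 against Uninjured, and 0 in each comparison of crushed groups. The libraries under 1% include none of GFP, so no such value exists there. Read number limits Pvalb most, with 28 reads in its lowest library.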
